A study of Mus musculus with 47 samples.

Results

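Mandibular neural crest cells that overexpress Hoxa2 were compared with wild-type mandibular neural crest cells of the same day. The members are the 6 libraries of total RNA that the labels give as HoxA2OE (3 libraries) and as WT (3 libraries) of the mandibular part of the first pharyngeal arch, Md, at E10.5, the stage in embryonic days, of the mouse. They are 6 of the 47 libraries in the count table. HoxA2OE is the genotype name for Hoxa2 overexpression, and WT is wild type. All cells in both groups were cranial neural crest cells, dissected, dissociated with trypsin and isolated by FACS. The allele, promoter or Cre line behind the overexpression, and the reporter used for sorting, are not named in the labels. Replicates are numbered without a statement of whether they come from different embryos, litters or pools. A p-value rests on the spread between libraries within groups over the fit of all 47, not on these 6 alone. That spread may be technical. Wild-type libraries of the second arch, PA2, of E10.5 (3 libraries), and PA2, Md, Hoxa2TempMut PA2 and Control PA2 libraries of E11.5 (3 each) served as side values.

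Hoxa2 encodes a homeodomain transcription factor that binds DNA together with Pbx and Meis cofactors. Neural crest cells of the second arch express it, while those of the mandibular arch do not, and mice without Hoxa2 form a mirror copy of proximal jaw elements in place of second-arch skeleton. Pitx1, Six2, Alx4, Barx1 and Lhx6 are transcription factor genes of the first arch that have been placed downstream of Hoxa2 by such work, and Meis, Zfp503 and Fzd4 genes are among those associated with the second arch.

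The 3 HoxA2OE libraries differed from wild-type Md in depth and composition. They held 47.1, 45.6 and 49.8 M counts (M, counts divided by 1e+06), against 22.6, 22.5 and 18.8 M in wild-type Md. Genes of the mitochondrial genome took 45.9% of counts in HoxA2OE replicate 1 and 28.5% in each of replicates 2 and 3, against 19.9 to 24.0% in wild-type Md and at most 33.6% in the other 44 libraries. Levels are given as CPM, counts per 1e+06 counts of the library, after TMM scaling, whose factors were 0.514, 0.775 and 0.765 in HoxA2OE and 1.00 to 1.08 in wild-type Md. Antisense transcripts took 0.127 to 0.190% of counts in HoxA2OE and 0.263 to 0.295% in wild-type Md. A chi-square comparison of the counts of 2 replicates, divided by its degrees of freedom, gave 316 and 331 for the pairs with HoxA2OE replicate 1 and 12.2 for replicates 2 and 3, against 6.54 to 12 in wild-type Md.

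Levels in HoxA2OE also followed the GC content of the transcripts. Genes were cut into 10 equal groups by GC content. In the group of lowest GC content the median gene lay 0.97, 0.56 and 0.56 above the wild-type Md mean in HoxA2OE replicates 1, 2 and 3, on the log2 scale. In the group of highest GC content it lay at -1.25, -0.54 and -0.42 in the same libraries. The 3 wild-type Md libraries stayed between -0.11 and 0.08 in both groups. A second fit with a GC offset was added after seeing the data: each library received a smooth curve of level on GC content, and its log2 fold change stands beside the first one below. The part of RNA quality or library preparation in it was not tested.

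**Figure D1:**
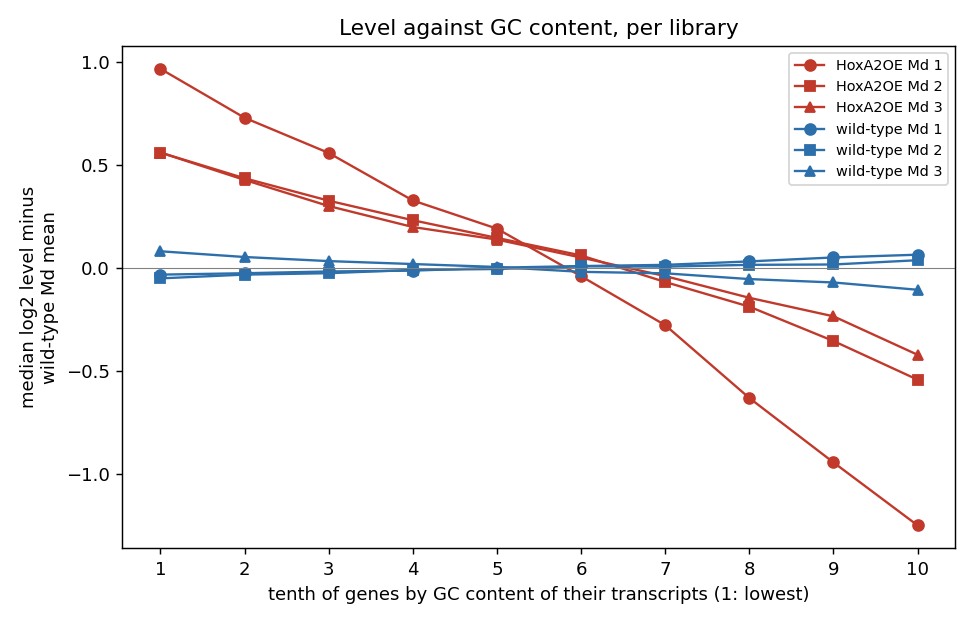
Median log2 level of genes, minus the wild-type Md mean, in 10 equal groups by GC content (x axis, lowest to highest), for the 3 HoxA2OE Md libraries (red) and the 3 wild-type Md libraries (blue). HoxA2OE replicate 1 runs from 0.97 in the lowest group to -1.25 in the highest, and replicates 2 and 3 are less steep.

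Hoxa2 (ENSMUSG00000014704, chromosome 6, 52162351 to 52165413 on the minus strand of GRCm38) checks the labelled genotype. It was at 92.8, 112 and 124 CPM in the 3 HoxA2OE libraries, against 0.297, 0.248 and 0.265 CPM in the 3 wild-type Md libraries, which is 10956 against 18 counts. Every HoxA2OE library lay far above every wild-type one, with a log2 fold change of 8.65 ± 0.37 (edgeR quasi-likelihood test with Benjamini-Hochberg adjustment over all genes tested, adjusted p = 1.13e-19, n = 3 each). The GC offset gave 8.61. Wild-type PA2 of the same day held 127, 125 and 124 CPM, so HoxA2OE Md replicate 3 was level with the second arch and replicate 1 was lowest of all 6. Gm20653, a gene model that overlaps part of Hoxa2 and all of Hoxa3 on the same strand (chromosome 6, 52163359 to 52213339), was at 27.7, 42.3 and 46.3 CPM in HoxA2OE and at no more than 0.127 CPM in wild-type Md, and Gm28308 shares 267 exon bases with Hoxa2 in GENCODE M21. Reads of overlapping genes cannot be told apart.

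Other Hox genes stayed near 0 in Md. Of the 12 genes tested in paralogue groups 1 to 4, Hoxa2 and its paralogue Hoxb2 passed the test. Hoxb2 was at 0.413, 0.481 and 0.184 CPM in HoxA2OE, against 0.0849, 0 and 0 CPM in wild-type Md, while wild-type PA2 held 5.07, 6.92 and 6.44 CPM (adjusted p = 0.000138, 34 against 2 counts). Hoxa3, next to Hoxa2 on the chromosome and at 10.4, 13.7 and 13.4 CPM in wild-type PA2, had a count of 0 in all 6 Md libraries. Hoxa4, Hoxd3, Hoxd4 and Hoxc4 were also at 0 in all 6, and Hoxb1, Hoxb3, Hoxb4 and Hoxd1 did not pass 0.131 CPM in any of them. None of the 27 tested genes of paralogue groups 5 to 13 passed the test (edgeR, 0 at adjusted p under 0.05, with or without the GC offset).

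Across all 20560 genes tested, 5569 were higher and 5708 lower in HoxA2OE Md at adjusted p under 0.05, which is 54.8% of genes, 27.1% higher and 27.8% lower. The median log2 fold change was -0.07. With the GC offset, 26.1% were higher and 22.0% lower, and 7871 of the 11277 calls were made again in the same direction while 86 were called the opposite way. Without HoxA2OE replicate 1, 4696 genes were higher and 4749 lower. Of all genes tested, 11299, or 55%, had no overlap between the 3 and 3 libraries. A lack of overlap in a single gene is therefore common here. Counts of list members are read against these shares. The shares take no account of GC content. Among genes of at least 1 CPM, 75.2% in the group of lowest GC content were called higher and 66.9% in the highest lower. The lists were chosen with earlier results of these data known, so an excess over these shares is a description, not independent support. The median of each list is the median log2 fold change of its tested members, and changes given from here on are log2 fold changes with their standard error, from edgeR's quasi-likelihood test with Benjamini-Hochberg adjusted p, n = 3 each. A gene is said to rise or fall where adjusted p is under 0.05. In bulk RNA, fewer cells of a type and less RNA per cell cannot be told apart.

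Genes that mark the first arch or are candidates for repression by Hoxa2 were lower in 6 of 10 and higher in 2, with a median log2 fold change of -1.33, against 27.8% lower among all genes tested. The median GC content of this list was 57.7%. In the group of highest GC content (57.4 to 78.9%), 66.9% of genes were called lower, with a median of -0.69. The count of 6 lies near that share. With the GC offset 3 of the 10 candidates were higher and 5 lower, against 26.1% and 22.0% of all genes tested. Without HoxA2OE replicate 1 none was higher and 6 were lower. Pitx1, the homeobox gene of hindlimb and jaw, was at 1.28, 7.5 and 7.43 CPM in HoxA2OE Md, against 70.7, 68.4 and 64.5 CPM in wild-type Md. The groups did not overlap, and replicate 1 was lowest. Pitx1 fell with a log2 fold change of -3.61 ± 0.32 (edgeR, adjusted p = 9.07e-12, n = 3 each), -2.69 with the GC offset and -3.2 without HoxA2OE replicate 1. Wild-type PA2 held 0.679, 1.05 and 1.03 CPM, so all HoxA2OE libraries lay above the second-arch ones, replicate 1 only slightly. Pitx1 shares 165 exon bases with the opposite-strand gene Gm47071 in GENCODE M21, and the libraries were unstranded.

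Six2, a homeobox gene that Hoxa2 is known to repress in second-arch crest, was at 0.579, 1.61 and 2.0 CPM in HoxA2OE, against 18.6, 20.2 and 13.4 CPM in wild-type Md. The groups did not overlap, and the HoxA2OE libraries spread on both sides of the 1.63, 1.85 and 1.23 CPM of wild-type PA2, with replicate 1 lowest. Six2 fell with a log2 fold change of -3.57 ± 0.27 (edgeR, adjusted p = 1.79e-13, n = 3 each) and -2.71 with the GC offset.

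Lhx6, a LIM homeobox gene of jaw and tooth mesenchyme, was at 17.9, 35 and 24.5 CPM in HoxA2OE, against 84.6, 74.6 and 61.1 CPM in wild-type Md. Alx4, an Aristaless-related gene of craniofacial mesenchyme, was at 41.7, 48.6 and 58.7 CPM, against 150.1, 126 and 112 CPM. Both fell without overlap, with log2 fold changes of -1.5 ± 0.20 and -1.38 ± 0.13 (adjusted p = 4.84e-08 and 3.15e-11), and -1.03 and -0.96 with the GC offset. Both lay above wild-type PA2, which held 6.02, 5.08 and 3.29 CPM of Lhx6 and 8.69, 6.88 and 6.93 CPM of Alx4. Barx1, a homeobox gene of the proximal arch and tooth region, was at 16.6, 32.7 and 39.5 CPM in HoxA2OE, against 75.3, 69.9 and 70.0 CPM in wild-type Md. Its log2 fold change of -1.27 ± 0.18 (adjusted p = 1.34e-07) shrank to -0.29 with the GC offset (adjusted p = 0.0431). Nkx3-2, which patterns the jaw joint, was at 0, 0.594 and 0.525 CPM, against 1.4, 1.57 and 1.22 CPM, and its call (-1.79 ± 0.48, adjusted p = 0.00193) ended with the GC offset (adjusted p = 0.115).

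Lhx8, the partner of Lhx6 in the jaw, ran the other way. It was at 199, 126 and 136 CPM in HoxA2OE, against 106, 104 and 107 CPM in wild-type Md, and rose by 0.54 ± 0.16 (adjusted p = 0.00531; 0.29 and adjusted p = 0.139 without HoxA2OE replicate 1). Htra1, a secreted protease gene, was near the threshold at 1.12, 0.594 and 0.42 CPM, against 0.17, 0.371 and 0.584 CPM, with overlapping groups (adjusted p = 0.0495; 0.387 without HoxA2OE replicate 1). Msx1, a homeobox gene of arch tips, was at 118, 92.3 and 106 CPM, against 96.5, 87 and 82.6 CPM, and was not called (0.25 ± 0.16, adjusted p = 0.19). It was called higher with the GC offset (1.09, adjusted p = 4.38e-05). The BMP modulator Bmper was at 9.05, 7.44 and 9.27 CPM, against 8.74, 6.6 and 8.44 CPM, with no call in either fit.

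**Figure D2:**
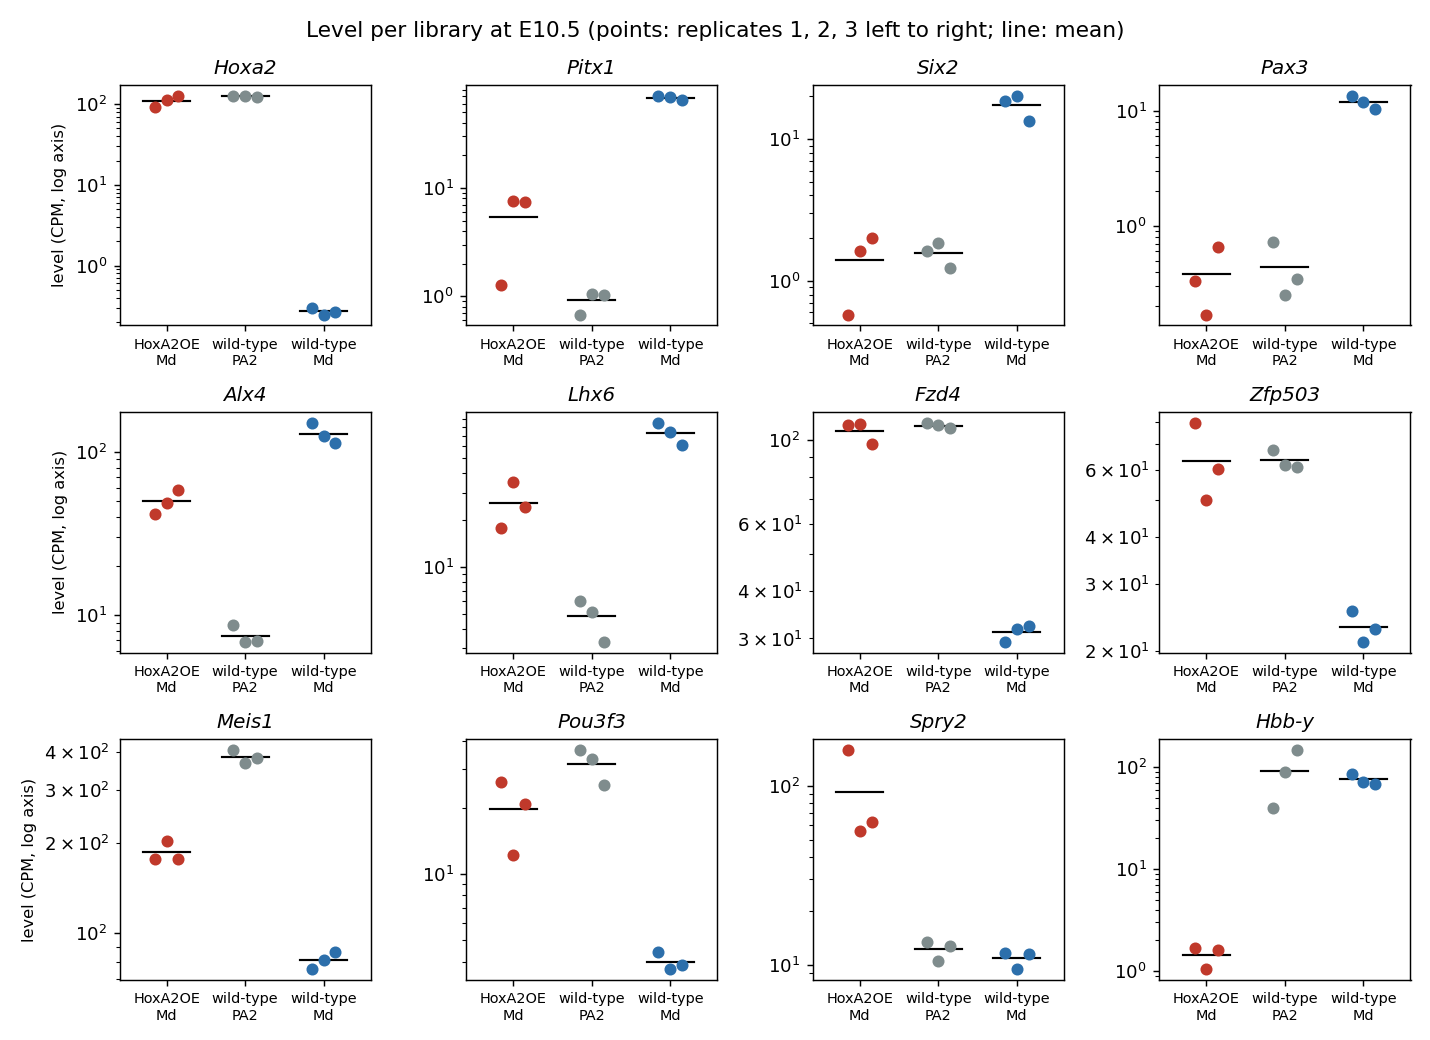
Level per library at E10.5 (CPM, log axes that differ between panels) of 12 genes, in HoxA2OE Md (red), wild-type PA2 (grey) and wild-type Md (blue), with points for the 3 replicates and a line for the mean. The levels are without the GC offset. Six2, Pax3, Fzd4 and Zfp503 in HoxA2OE Md sit beside wild-type PA2, while Alx4 and Lhx6 sit between wild-type PA2 and wild-type Md.

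Set against wild-type PA2 in the same fit, HoxA2OE Md held more Pitx1 (2.59, adjusted p = 1.86e-06), Alx4 (2.73, adjusted p = 9.77e-18) and Lhx6 (2.42, adjusted p = 2.6e-11). Six2 (-0.10 ± 0.34, adjusted p = 0.816) and Pax3 (-0.14 ± 0.48, adjusted p = 0.827) were not called against PA2, which does not show that the levels are equal. With the GC offset Pitx1 lay further above PA2 (3.37, adjusted p = 2.86e-10). Six2 turned sign without a call (0.62, adjusted p = 0.0858), and Pax3 stayed without one (-0.25, adjusted p = 0.695).

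Candidates for activation by Hoxa2 were higher in 7 of 10 tested and lower in 0, with a median of 0.63, against 27.1% higher among all genes tested. The median GC content of this list was 47.4%. In the GC group that holds this value (46.1 to 47.8%), 48.7% of genes were called higher, with a median of 0.25. The GC offset gave 7 higher and 1 lower of the 10 candidates. Fzd4, a Wnt receptor gene, was at 109, 110.1 and 97.6 CPM in HoxA2OE Md, against 29.4, 31.8 and 32.4 CPM in wild-type Md. The groups did not overlap, and the HoxA2OE values lay around the 111, 109 and 107 CPM of wild-type PA2. Fzd4 rose by 1.76 ± 0.12 on the log2 scale (edgeR, adjusted p = 7.48e-15, n = 3 each), with 1.6 under the GC offset and 1.72 without HoxA2OE replicate 1. Zfp503, a zinc finger corepressor gene, was at 79.6, 50.0 and 60.3 CPM, against 25.4, 21.2 and 22.9 CPM in wild-type Md. It rose by 1.45 ± 0.13 (adjusted p = 1.18e-11; 2.27 with the GC offset), and its HoxA2OE libraries spanned the 67.8, 61.9 and 61 CPM of wild-type PA2.

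Meis1 and Meis2 encode homeodomain cofactors of Hox proteins. Meis1 was at 177, 203 and 177 CPM in HoxA2OE, against 75.9, 81.4 and 86.6 CPM in wild-type Md, and rose by 1.19 ± 0.12 (adjusted p = 2.76e-10; 0.88 with the GC offset). Meis2 was at 596, 572 and 581 CPM, against 349, 348 and 316 CPM, and rose by 0.79 ± 0.10 (adjusted p = 1.82e-08; 0.64 with the GC offset). Neither gene overlapped between the groups, and both stayed below wild-type PA2, which held 406, 369 and 384 CPM of Meis1 and 896, 734 and 706 CPM of Meis2. Meox1, a homeobox gene of low level here, was at 1.98, 3.79 and 2.86 CPM, against 1.82, 1.16 and 0.955 CPM (log2 fold change 1.13 ± 0.27, adjusted p = 0.000559).

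The ligand gene Wnt5a was at 111, 121 and 127 CPM in HoxA2OE, against 87.4, 78.8 and 92.6 CPM in wild-type Md, a smaller rise (0.47 ± 0.10, adjusted p = 0.00018; 0.36 with the GC offset). Prrx1, a homeobox gene of crest mesenchyme, rose by 0.42 ± 0.09 (adjusted p = 0.000219), but the GC offset brought it to 0.02 (adjusted p = 0.812). The remaining 3 members were not called: Hoxa3 at 0, the Slit receptor gene Robo2 at 53.5, 54 and 59.3 CPM against 49.8, 53.4 and 52.6 CPM, and Zfp703, the paralogue of Zfp503. Zfp703 was at 17.1, 42.5 and 52.9 CPM, against 45.1, 38.6 and 32.5 CPM (-0.04 ± 0.24, adjusted p = 0.904). Under the GC offset Zfp703 was called higher (0.77) and Robo2 lower (-0.31, adjusted p = 0.0401).

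Of the 9 Hox cofactor genes, 4 rose and 2 fell (median 0.08; 5 higher and 1 lower with the GC offset). Pbx3 was at 229, 200.1 and 207 CPM in HoxA2OE, against 113, 102 and 107 CPM in wild-type Md, and rose by 0.99 ± 0.10 (adjusted p = 4.53e-10). It lay above the 119, 107 and 103 CPM of wild-type PA2, unlike Meis1 and Meis2. Meis3, at 1.74, 4.36 and 5.04 CPM against 9.55, 7.06 and 6.58 CPM, fell with a log2 fold change of -1.03 ± 0.23 (adjusted p = 0.000228; -0.43 with the GC offset), and the call of Pbx4 (-0.86 ± 0.30, adjusted p = 0.0134) ended with the GC offset (adjusted p = 0.464). Pbx2 (-0.04 ± 0.11), Pknox1 (0.08 ± 0.13) and Pknox2 (-0.01 ± 0.10) were not called, and Pbx2 was called higher with the GC offset (0.40).

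**Figure D3:**
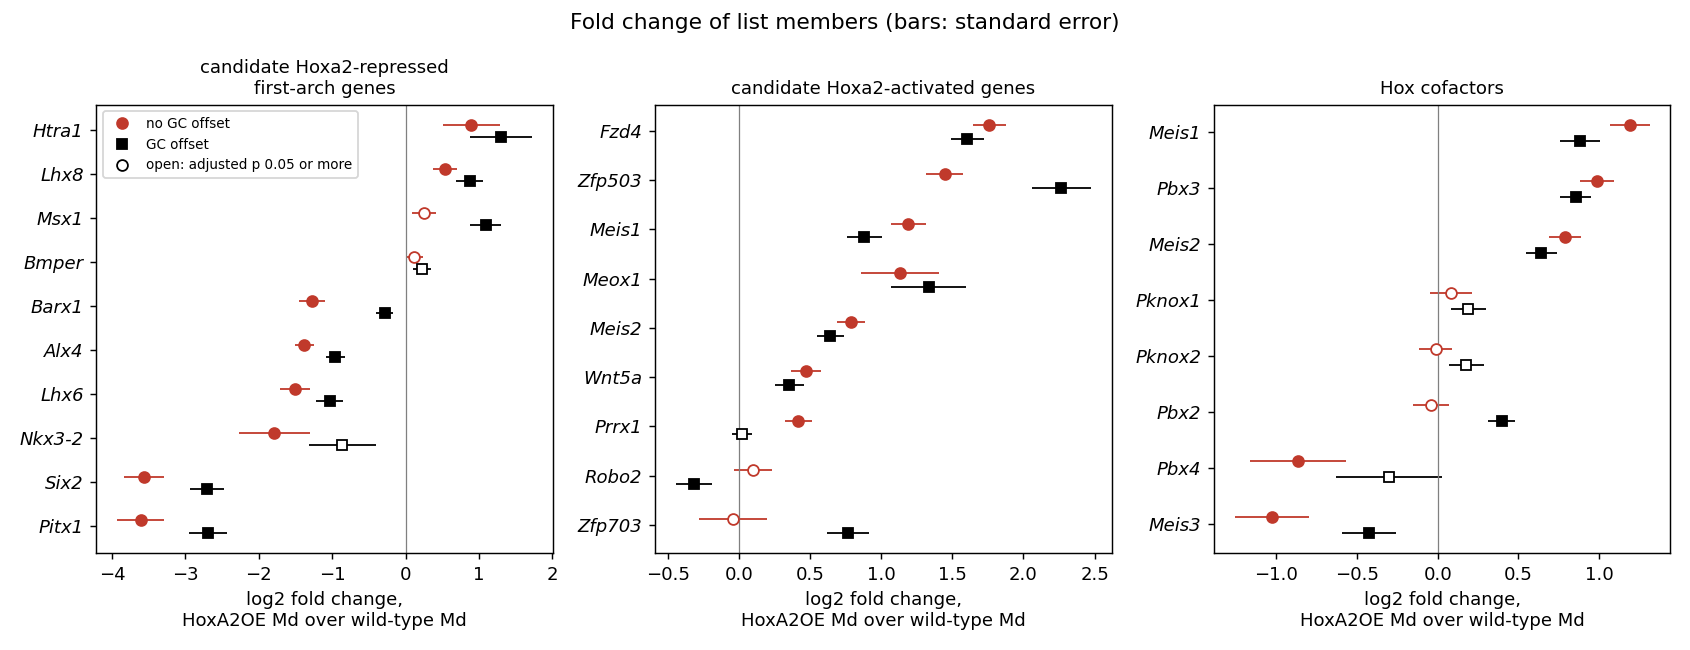
Log2 fold change of HoxA2OE Md over wild-type Md (x axis, bars for the standard error) for members of 3 gene lists, without (red circles) and with (black squares) the GC offset, filled where adjusted p is under 0.05. Pitx1 and Six2 are lowest in both fits, Fzd4 and Zfp503 are highest among the activation candidates, and Zfp703, Pbx2, Robo2 and Prrx1 move across or onto 0. Hoxa3, at 0 counts, is left out.

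The promoters of Hoxa2 itself, of Six2 and of the 2 activation candidates with the largest rises were searched for letters that a Hox and Pbx pair or Meis could bind, and Hoxa2 and Six2 held matches. Each window covers the 250 bases before the RefSeq start site on GRCm38.p6, 5′ to 3′ on the strand of the gene. The Hoxa2 window lies inside the longer span given above for the gene, while GENCODE M21 ends Hoxa2 at 52164831, next to the window. Capitals mark TGATNNAT, a Hox-Pbx motif with N for any base, and TGACAG, a Meis motif, on either strand, and the 2 do not share letters in these windows.
Hoxa2, chr6:52164832-52165081, minus strand: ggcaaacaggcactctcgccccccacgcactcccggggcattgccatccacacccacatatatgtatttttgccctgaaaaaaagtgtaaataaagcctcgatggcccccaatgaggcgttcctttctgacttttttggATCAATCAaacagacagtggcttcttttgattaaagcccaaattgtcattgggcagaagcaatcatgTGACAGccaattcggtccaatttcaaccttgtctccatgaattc
Six2, chr17:85688255-85688504, minus strand: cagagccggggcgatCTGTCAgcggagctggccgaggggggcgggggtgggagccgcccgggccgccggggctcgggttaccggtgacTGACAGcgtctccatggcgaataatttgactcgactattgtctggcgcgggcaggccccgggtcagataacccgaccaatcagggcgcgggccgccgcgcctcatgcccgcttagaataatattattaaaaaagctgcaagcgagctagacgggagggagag
Fzd4, chr7:89404116-89404365, plus strand: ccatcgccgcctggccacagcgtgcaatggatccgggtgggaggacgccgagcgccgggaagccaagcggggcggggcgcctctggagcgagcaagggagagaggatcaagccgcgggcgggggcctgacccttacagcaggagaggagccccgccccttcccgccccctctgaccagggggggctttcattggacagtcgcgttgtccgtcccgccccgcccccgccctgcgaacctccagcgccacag
Zfp503, chr14:21989602-21989851, minus strand: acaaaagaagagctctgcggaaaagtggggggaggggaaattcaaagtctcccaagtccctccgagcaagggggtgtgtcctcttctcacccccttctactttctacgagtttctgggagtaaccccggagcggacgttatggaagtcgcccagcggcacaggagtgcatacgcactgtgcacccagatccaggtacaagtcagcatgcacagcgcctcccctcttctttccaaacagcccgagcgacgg
Hoxa2 held both motifs, a combination in 1.32% of 27025 promoters, Six2 held the Meis motif at 2 places, and Fzd4 and Zfp503 held neither in this window. Of the 21 markers and candidates, 16 matched the table, and 1 of these held the Hox-Pbx motif and 4 the Meis motif (Hoxa2, Six2, Hoxa3 and Nkx3-2). Among all 27025 promoters the shares were 7.91% and 16%. Pitx1, Meox1, Wnt5a, Zfp703 and Alx4 did not match. A match is a description of letters, not of binding.

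Regulators of the distal arch, which endothelin signalling turns on in the mandible, were higher in 5 and lower in 5 of 13 (median 0.19; 6 higher and 4 lower with the GC offset). Hand1, a basic helix-loop-helix gene of the arch tip, was at 150.2, 110.0 and 129.7 CPM in HoxA2OE, against 86.8, 64.7 and 69.2 CPM in wild-type Md and 10.8, 9.4 and 7.86 CPM in wild-type PA2. It rose by 0.82 ± 0.25 (adjusted p = 0.00512), away from the PA2 level. Goosecoid, Gsc, was at 2.11, 3.14 and 3.52 CPM, against 8.7, 7.72 and 9.71 CPM, and fell with a log2 fold change of -1.55 ± 0.21 (adjusted p = 7.83e-08; -0.55 with the GC offset). Of the distal markers shared by the ventral first and second arches, Hand2 was at 155, 67.8 and 75.4 CPM against 67.7, 65 and 60.0 CPM and Dlx5 at 85.5, 109 and 129 CPM against 169.5, 148 and 137 CPM. Hand2 rose (0.63 ± 0.21, adjusted p = 0.0126; 1.56 with the GC offset), a call that ended without HoxA2OE replicate 1 (0.14, adjusted p = 0.559). Dlx5 fell (-0.49 ± 0.15, adjusted p = 0.00477), a call that ended with the GC offset (adjusted p = 0.801).

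Regulators of the proximal arch and maxilla were higher in 7 of 10, with 1 lower, Lhx6 (median 0.60; 8 higher and 1 lower with the GC offset). The POU gene Pou3f3 was at 26.2, 12.2 and 20.7 CPM in HoxA2OE, against 4.42, 3.71 and 3.87 CPM in wild-type Md and 36.4, 33.3 and 25.3 CPM in wild-type PA2. It rose by 2.29 ± 0.19 (edgeR, adjusted p = 1.74e-12; 2.43 with the GC offset). The nuclear receptor gene Nr2f1, a maxillary regulator, was at 385, 240.4 and 224 CPM, against 91, 95.2 and 93.7 CPM, and rose by 1.6 ± 0.13 (adjusted p = 4.61e-13; 2.03 with the GC offset). HoxA2OE replicate 1 was highest for both. Pax9, at 26, 25.2 and 23.7 CPM against 11.6, 13.1 and 10.9 CPM, rose by 1.07 ± 0.12 with close replicates (adjusted p = 8.87e-10).

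Frontonasal regulators fell in 4 of 8, among them Pax3, Six2 and Alx4, and rose in 0 (median -0.74; 1 higher and 3 lower with the GC offset). Pax3, a paired-box gene of early crest and facial mesenchyme, was at 0.331, 0.17 and 0.656 CPM in HoxA2OE, against 13.5, 12 and 10.3 CPM in wild-type Md. The groups did not overlap, and wild-type PA2 held 0.724, 0.252 and 0.344 CPM, a range that overlapped the HoxA2OE one. Pax3 fell with a log2 fold change of -4.9 ± 0.28 (edgeR, adjusted p = 7.47e-17, n = 3 each), with -5.05 under the GC offset and -4.83 without HoxA2OE replicate 1. Alx1 was at 23.9, 12.2 and 15.2 CPM against 18.3, 16.1 and 15.9 CPM and was not called.

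In endothelin and Notch signalling of the arch, 5 of 13 genes rose and 2 fell (median -0.13; 6 higher and 2 lower with the GC offset). The endothelin receptor gene Ednrb was at 5.04, 4.1 and 5.46 CPM in HoxA2OE, against 1.36, 1.61 and 1.96 CPM in wild-type Md, and rose by 1.57 ± 0.29 (adjusted p = 2.05e-05), while Ednra, the receptor gene through which endothelin acts in arch crest, was not called (-0.07 ± 0.13, adjusted p = 0.663). Mef2c, a transcription factor gene downstream of endothelin signalling in arch crest, rose by 0.98 ± 0.12 (adjusted p = 1.67e-08). Jag1, a Notch ligand of the dorsal arch, was at 7.15, 8.8 and 7.51 CPM, against 14.8, 15.8 and 16 CPM, and fell with a log2 fold change of -0.99 ± 0.12 (adjusted p = 5.04e-09; -1.03 with the GC offset). The G protein gene Gna11 was at 16, 38.7 and 51.2 CPM, against 64.9, 60.5 and 56.9 CPM. It fell with a log2 fold change of -0.77 ± 0.19 (adjusted p = 0.000655; -0.34 with the GC offset). Under the GC offset its call ended once HoxA2OE replicate 1 was left out (-0.11, adjusted p = 0.377). It also ended when the 6 libraries were fitted alone (adjusted p = 0.104).

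Of 25 Wnt pathway genes, 11 rose and 5 fell (median 0.22; 15 higher and 4 lower with the GC offset). The secreted inhibitor gene Dkk1 was at 93.6, 36.8 and 45.1 CPM in HoxA2OE, against 12.3, 12.3 and 12.5 CPM in wild-type Md, and rose by 2.24 ± 0.23 (adjusted p = 3.74e-10; 1.71 without HoxA2OE replicate 1). Sfrp2, another secreted antagonist, was at 229, 139 and 148 CPM, against 57.6, 54.6 and 56.8 CPM, and rose by 1.61 ± 0.14 (adjusted p = 8.13e-12). Neither gene overlapped between the groups, and replicate 1 was highest for both. Wnt11 was called lower at under 1 CPM (-1.69 ± 0.48, adjusted p = 0.00302), with overlapping groups and no call under the GC offset.

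Of 14 FGF receptor and feedback genes, 7 rose and 2 fell (median 0.28; 8 higher and 0 lower with the GC offset). Spry2, a feedback inhibitor of receptor tyrosine kinases, was at 157, 55.8 and 62.4 CPM in HoxA2OE, against 11.7, 9.53 and 11.6 CPM in wild-type Md and 13.4, 10.6 and 12.7 CPM in wild-type PA2. It rose by 3.07 ± 0.26 (edgeR, adjusted p = 3.41e-12; 2.83 with the GC offset), and by 2.42 without replicate 1, its highest library. Spred1, with the same role, was at 221, 188 and 196 CPM, against 116, 113 and 114 CPM (0.82 ± 0.09, adjusted p = 4.43e-10; 0.33 with the GC offset), and the receptor gene Fgfr3 rose by 1.08 ± 0.20 (adjusted p = 2.56e-05). The ligand gene Fgf18 was called lower at under 1 CPM (adjusted p = 0.0191; 0.0805 with the GC offset, and 0.0951 and 0.15 without HoxA2OE replicate 1 or wild-type Md replicate 1).

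Of 24 BMP and TGF-beta genes, 10 rose and 5 fell (median 0.12; 11 higher and 4 lower with the GC offset). Id2, an inhibitor of helix-loop-helix factors that BMP signalling turns on, was at 297, 182 and 199 CPM in HoxA2OE, against 64.1, 62.9 and 80.2 CPM in wild-type Md, and rose by 1.71 ± 0.16 (adjusted p = 3.01e-11). Id4 rose by 2.48 ± 0.36 (adjusted p = 2.95e-07; 1.71 without HoxA2OE replicate 1). The ligand gene Bmp7 was at 2.56, 2.91 and 3.31 CPM, against 9.98, 7.84 and 7.69 CPM and 3.26, 3.19 and 4.57 CPM in wild-type PA2, and fell with a log2 fold change of -1.53 ± 0.20 (adjusted p = 2.6e-08; -1.06 with the GC offset). The activin antagonist gene Fst fell with a log2 fold change of -1.96 ± 0.31 (adjusted p = 1.32e-06).

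Of 9 hedgehog target genes, 2 rose and 3 fell (median -0.05, with 4 higher and 2 lower under the GC offset), near the 27.1% and 27.8% of all genes tested. Gli1, the transcription factor that reports hedgehog activity, was at 8.31, 15.3 and 16 CPM in HoxA2OE, against 33.3, 33.7 and 30.2 CPM in wild-type Md, and fell with a log2 fold change of -1.28 ± 0.19 (adjusted p = 3.39e-07; -0.69 with the GC offset). Osr2, a zinc finger gene of palate and tooth mesenchyme, was at 0.785, 1.42 and 3.1 CPM, against 9.81, 8.75 and 8.28 CPM, and fell with a log2 fold change of -2.28 ± 0.23 (adjusted p = 2.55e-10; -1.91 with the GC offset). The forkhead gene Foxf2 rose by 0.88 ± 0.21 (adjusted p = 0.000426).

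Of 14 retinoic acid pathway genes, 7 fell and 1 rose (median -0.54; 1 higher and 4 lower with the GC offset). The retinol uptake receptor gene Stra6 was at 7.03, 16.7 and 14.6 CPM in HoxA2OE, against 32.7, 33 and 26.6 CPM in wild-type Md, and fell with a log2 fold change of -1.26 ± 0.18 (adjusted p = 2e-07). The nuclear receptor gene Rarg was at 7.11, 25.1 and 28.2 CPM, against 54.2, 49.7 and 40.6 CPM, and fell with a log2 fold change of -1.24 ± 0.24 (adjusted p = 3.53e-05), with replicate 1 lowest for both. The carrier gene Crabp2 and the synthesis gene Aldh1a2 fell with log2 fold changes of -0.90 ± 0.16 and -0.96 ± 0.25 (adjusted p = 1.12e-05 and 0.00103). These 4 kept their call and direction with the GC offset, at -0.77, -0.67, -0.71 and -0.89.

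Of 17 tested genes of cartilage and bone, 3 rose and 3 fell (median 0.00; 5 higher and 1 lower with the GC offset). Runx2, the master factor of bone formation, was at 8.31, 10.8 and 11.8 CPM in HoxA2OE, against 28.6, 26 and 20.4 CPM in wild-type Md, and fell with a log2 fold change of -1.27 ± 0.18 without overlap (adjusted p = 2.36e-07; -1.08 with the GC offset). Col1a1, a collagen gene, rose by 1.12 ± 0.16 and Spp1, osteopontin, by 2.95 ± 0.51 with under 1 CPM in wild-type Md (adjusted p = 1.43e-07 and 6.88e-06). Sox9, the factor that starts cartilage, was at 135, 122 and 126 CPM, against 119.5, 119.7 and 111 CPM, and was not called (adjusted p = 0.31).

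Semaphorin, ephrin and Slit guidance genes rose in 9 of 27 cases and fell in 6 (median 0.10, with 9 higher and 7 lower under the GC offset). Both counts lie near the 27.1% higher and 27.8% lower among all genes tested. The ephrin receptor gene Epha3 was at 228, 213 and 205 CPM in HoxA2OE, against 67.8, 59.1 and 60.3 CPM in wild-type Md and 155, 127 and 150.0 CPM in wild-type PA2, and rose by 1.79 ± 0.12 (adjusted p = 5.16e-15). Sema3d rose by 2.4 ± 0.28 and Sema3f fell with a log2 fold change of -1.55 ± 0.19 (adjusted p = 4.36e-09 and 8.84e-09), and the ephrin receptor gene Ephb3 fell with a log2 fold change of -0.92 ± 0.14 (adjusted p = 6.84e-07). Of 15 proliferation genes, 8 rose and 2 fell (median 0.37; 10 higher and 0 lower with the GC offset), led by the replication clamp gene Pcna at 589.7, 318 and 332 CPM against 164, 148 and 149 CPM (1.43 ± 0.14, adjusted p = 1.03e-10). Ccna2, Top2a and Ccnb1, genes of S phase and mitosis, rose by 0.91 ± 0.10, 0.88 ± 0.10 and 0.82 ± 0.09 (adjusted p = 7.52e-10, 7.76e-10 and 1.73e-09), and these 4 stayed called with the GC offset at 0.46 to 0.95.

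Targets of p53 split into 5 higher and 4 lower of 15 (median -0.04, with 4 higher and 2 lower under the GC offset). These counts lie near the 27.1% higher and 27.8% lower among all genes tested. Perp (3.23 ± 0.71), Fas (2.36 ± 0.72) and Ccng1 (1.23 ± 0.16) rose and the cell-cycle inhibitor Cdkn1a fell (-1.89 ± 0.37), with edgeR adjusted p = 0.000206, 0.00524, 5.24e-08 and 3.62e-05. Perp, Fas and Cdkn1a averaged only 0.59, 0.49 and 0.24 CPM in HoxA2OE, against 0.063, 0.092 and 0.95 CPM in wild-type Md. The call of Cdkn1a ended with the replicate number as a block in a fit of the 6 libraries (adjusted p = 0.0575). Immediate early and heat shock genes, which respond to tissue handling, fell in 8 and rose in 4 cases of 24 (median -0.43; 6 higher and 4 lower with the GC offset). Among all genes tested 27.8% fell and 27.1% rose, so the falls lie near that share. Fosb was at 0.248, 1.13 and 1.31 CPM in HoxA2OE, against 5.43, 9.66 and 4.83 CPM in wild-type Md (-2.8 ± 0.40, adjusted p = 1.64e-07), and Jund and Ddit4 fell with log2 fold changes of -1.89 ± 0.21 and -1.5 ± 0.22 (adjusted p = 1.88e-09 and 4.47e-07). With the GC offset Fosb, Jund and Ddit4 were at -2.35, -0.79 and -0.90 and stayed called. Klf4 fell with a log2 fold change of -1.1 ± 0.19 (adjusted p = 5.63e-06) and lost its call with the GC offset.

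**Figure D4:**
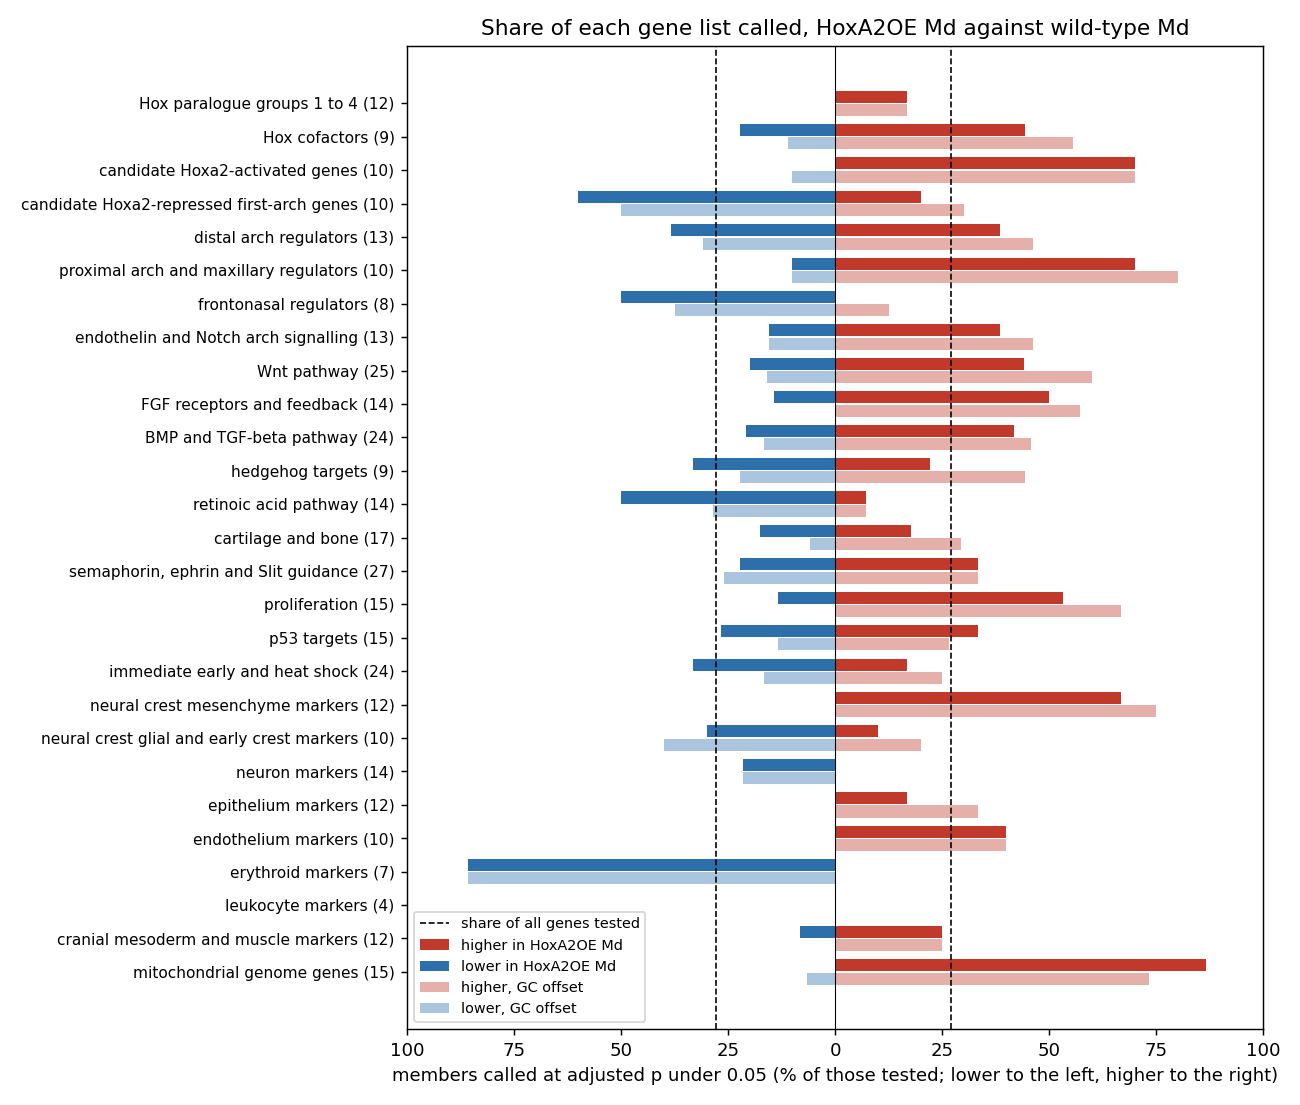
Share of the tested members of each gene list (number tested in parentheses) that were called higher (right, red) or lower (left, blue) in HoxA2OE Md than in wild-type Md, without (dark) and with (pale) the GC offset. Dashed lines mark the 27.1% and 27.8% of all genes tested, whatever their GC content. Activation candidates, proximal regulators and mesenchyme markers extend to the right, and repression candidates, frontonasal and erythroid genes to the left.

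Markers of crest mesenchyme were higher in 8 of 12 and lower in 0 in HoxA2OE (median 0.49; 9 higher and 0 lower with the GC offset), and their summed level was 3223, 2501 and 2402 CPM, against 1854, 1802 and 1839 CPM in wild-type Md. Foxc1 was at 121, 57.6 and 64.6 CPM, against 18.1, 18 and 18.4 CPM and 44.8, 46 and 46 CPM in wild-type PA2, and rose by 2.15 ± 0.21 (adjusted p = 5.92e-11). Twist1 was at 581, 223 and 236 CPM, against 128, 121 and 138 CPM, and rose by 1.43 ± 0.19 (adjusted p = 4.16e-08; 0.82 without HoxA2OE replicate 1). Dlx2 rose by 0.91 ± 0.16 and Ets1 by 0.79 ± 0.14 (adjusted p = 7.26e-06 and 5.4e-06).

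Red cell genes separated the groups most among the other cell types. Erythroid markers were lower in 6 of 7 in HoxA2OE (median -2.81; 0 higher and 6 lower with the GC offset), with sums of 13.5, 10.47 and 10.7 CPM, against 284, 237 and 219 CPM in wild-type Md and 19.55 to 988.6 CPM in the 44 libraries of the other groups. The embryonic globin gene Hbb-y was at 1.69, 1.05 and 1.6 CPM, against 86.4, 72.2 and 68.7 CPM, and fell with a log2 fold change of -5.72 ± 0.57 (adjusted p = 1.01e-10). Hba-x, Hbb-bh1 and the band 3 gene Slc4a1, outside this list, fell with log2 fold changes of -4.79 ± 0.50, -4.41 ± 0.46 and -5.34 ± 0.62 (adjusted p = 3.25e-10, 3.11e-10 and 3.65e-09). Globin genes are close paralogues, so the split of reads among them is uncertain. The part of red cell RNA in other differences was not tested.

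Endothelial markers summed to 16, 16.2 and 15.6 CPM in HoxA2OE, against 8.23, 8.58 and 8.12 CPM in wild-type Md, with 4 of 10 higher: Pecam1, Kdr, Tek and Egfl7 (1.56 ± 0.33, 1.53 ± 0.30, 1.26 ± 0.33 and 0.74 ± 0.26). The call of Egfl7 ended without HoxA2OE replicate 1 (adjusted p = 0.0794). Epithelial markers summed to 7.64, 6.14 and 5.91 CPM, against 4.37, 4.54 and 4.35 CPM, with Edn1 and Esrp1 (1.92 ± 0.57) called higher of 12. Edn1, the endothelin ligand of the arch epithelium, was at 0.95, 0.0849 and 0.0525 CPM against a count of 0 in wild-type Md, and without HoxA2OE replicate 1 its call ended (adjusted p = 0.0576). Neuron markers were lower in 3 of 14, Elavl3, Nefm and Tubb3 (-2.19 ± 0.68, -1.27 ± 0.31 and -1.2 ± 0.29), with sums of 33.5, 24.9 and 24.3 CPM against 30.1, 28.2 and 29.4 CPM. The call of Tubb3 ended with the GC offset (-0.56, adjusted p = 0.121) and that of Elavl3 without wild-type Md replicate 1 (adjusted p = 0.0537). Glial and early crest markers were lower in 3 (Sox10 with -2.71 ± 0.59, S100b with -1.89 ± 0.56 and Fabp7 with -0.71 ± 0.30) and higher in 1 (Ednrb) of 10, with sums of 16.3, 22.8 and 20.5 CPM against 18, 16.6 and 15.1 CPM. The call of Fabp7 ended without any one of HoxA2OE replicates 1 and 2 and wild-type Md replicates 1 and 3 (adjusted p = 0.0584, 0.295, 0.131 and 0.0714). Leukocyte markers had no call among 4 tested, at sums of 2.23, 3.62 and 3.91 CPM against 4.58, 4.17 and 4.4 CPM. Mesoderm and muscle markers were higher in 3 (among them Myl4 with 1.65 ± 0.53 and Lhx2 with 1.5 ± 0.32) and lower in 1 (Des, -0.74 ± 0.29) of 12, with Myog at 0, at sums of 20.5, 23 and 20.1 CPM against 18, 18.4 and 20.6 CPM. Without HoxA2OE replicate 1, 1 of these 12 was higher, Lhx2, and 0 were lower, with Myl4 at adjusted p = 0.0956 and Des at 0.217. The call of Des also ended with the GC offset (adjusted p = 0.192) and without wild-type Md replicate 1 or 3 (adjusted p = 0.0758 and 0.0564). No sex-linked marker was called among 6. Xist and the Y-linked gene Kdm5d were both present in every HoxA2OE and wild-type Md library, at 674 to 1858 CPM and 33.4 to 74 CPM.

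Mitochondrial genome genes were higher in 13 of 15 and, without HoxA2OE replicate 1, in 8, with 1 lower. The complex I gene mt-Nd4 was at 18450, 3096 and 2975 CPM in HoxA2OE, against 1046, 810.5 and 1242 CPM in wild-type Md, and replicate 1 lay far above the other HoxA2OE libraries. Its log2 fold change was 2.98 ± 0.39 (adjusted p = 4.72e-08), and 1.54 without that replicate. mt-Nd1, mt-Nd5 and mt-Nd2 rose by 2.91 ± 0.35, 2.91 ± 0.41 and 2.77 ± 0.52 (adjusted p = 6.3e-09, 1.75e-07 and 2.06e-05), and mt-Nd2 was not called without replicate 1 (adjusted p = 0.095).

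By size, the 12 largest rises were led by Hoxa2 and also held Spry2. Anks1b, a scaffold protein gene of synapses, was at 7.77, 4.41 and 3.18 CPM in HoxA2OE, against 0.0425, 0.124 and 0.106 CPM in wild-type Md and 0.0905, 0.126 and 0.0983 CPM in wild-type PA2, and rose by 5.75 ± 0.54 (adjusted p = 3.45e-11). The largest rises and falls were taken only from genes without overlap between the groups, so that separation is part of the choice. Irx2, an Iroquois homeobox gene, was at 12.5, 11 and 11.4 CPM in HoxA2OE, against 1.15, 1.16 and 0.637 CPM in wild-type Md and 5.61, 4.57 and 5.55 CPM in wild-type PA2. It rose by 3.53 ± 0.20 (adjusted p = 5.51e-17; 3.94 with the GC offset) with 3 close replicates. Moxd1, a copper monooxygenase gene, was at 13.6, 12.3 and 11.4 CPM, against 2.21, 2.48 and 1.96 CPM, and rose by 2.48 ± 0.15 (adjusted p = 9.12e-16), beside 12.9, 11.6 and 13.1 CPM in wild-type PA2. Hpgd, which inactivates prostaglandins, was at 31, 12.9 and 16.3 CPM, against 1.91, 1.44 and 1.86 CPM (3.52 ± 0.24, adjusted p = 7.96e-15), and Sytl2, a vesicle traffic gene, was at 14.8, 12.9 and 11.7 CPM, against 2.04, 2.06 and 2.76 CPM (2.53 ± 0.20, adjusted p = 4.6e-13).

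In 5 other large rises HoxA2OE replicate 1 stood far above replicates 2 and 3. Plagl1, an imprinted zinc finger gene, was at 2640, 551 and 608 CPM in HoxA2OE, against 237, 206 and 239 CPM in wild-type Md, and its log2 fold change of 2.48 ± 0.32 was 1.33 without replicate 1. The neddylation gene Dcun1d5 was at 249, 71.7 and 75.6 CPM, against 21.8, 15.4 and 20.1 CPM (2.79 ± 0.27; 1.93 without replicate 1). The mitochondrial import gene Timm8a1 was at 86.3, 28.6 and 26.7 CPM, against 6.75, 7.39 and 8.81 CPM (2.62 ± 0.24; 1.84 without replicate 1). Ccdc175, which shares 121 exon bases with Jkamp, rose by 2.55 ± 0.44 and Cd55, a complement inhibitor gene, by 3.03 ± 0.45, and by 1.34 and 2.27 without replicate 1. All 5 stayed called without it (adjusted p of 4.87e-07, 2.49e-11, 1.11e-12, 0.00168 and 2.82e-05).

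Among the 12 largest falls, Nr1h5, a nuclear receptor gene of the farnesoid X family, had a count of 0 in the 3 HoxA2OE libraries, against 47.6, 45.1 and 30.8 CPM in wild-type Md. Set against a floor of 3 counts over the group, it was at least 1340-fold lower (adjusted p = 0.000201). Wild-type PA2 of E10.5 held 59.7, 44.6 and 28.4 CPM, and no library of E11.5 passed 0.0296 CPM. Histone genes Hist1h4d and Hist2h4 fell with log2 fold changes of -4.07 ± 0.31 and -3.24 ± 0.36 (adjusted p = 3.42e-13 and 1.51e-09), with Hist1h4d at 0.661, 2.23 and 3.02 CPM against 36.5, 31.4 and 36 CPM. Libraries of E11.5 did not pass 4.92 CPM of Hist1h4d or 1.96 CPM of Hist2h4, and against Md of E11.5 neither was called in HoxA2OE (-0.64 and 0.18, adjusted p = 0.0872 and 0.724). Histone copies share sequence, so reads can be split among them. Pou5f2, a POU gene, was at 0.331, 1.22 and 0.972 CPM, against 7.22, 9.12 and 8.81 CPM (-3.24 ± 0.28, adjusted p = 3.57e-12), and AY036118 was at 1.07, 9.0 and 12.2 CPM, against 79.2, 81.9 and 68.3 CPM (-3.32 ± 0.46, adjusted p = 1.2e-07), lowest in replicate 1.

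The libraries of E11.5 allow a comparison that shares no library with the HoxA2OE contrast: genes that differ between second arch and mandible. PA2 against Md at E11.5 called 842 genes higher and 777 lower, 7.87% of genes tested. Of the 815 genes higher in PA2 with any difference in Md at E10.5, 61.5% were higher in HoxA2OE Md, 315 called higher and 114 lower, against 45.3% of genes not called at E11.5. Of the 774 genes lower in PA2, 50.3% were lower in HoxA2OE Md, 197 called lower and 222 higher, against 54.7% of genes not called. Among the genes at least 4-fold lower in PA2, 68.0% of 128 were lower in HoxA2OE Md, and among those at least 4-fold higher, 56.5% of 161 were higher. With the GC offset, which called other sets at E11.5, 59.3% of 929 genes higher in PA2 were higher in HoxA2OE Md and 48.1% of 822 genes lower in PA2 were lower. Genes are not independent, so these shares carry no p-value.

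Of the 8 genes with the largest PA2 excess at E11.5, Hoxa2, Hoxb2, Hoxb3os, Dmrt2 and Onecut2 rose in HoxA2OE Md. Hoxa3, Gad2 and Sertm1 had no call there (adjusted p = 1, 0.119 and 0.566), and Sertm1 was at 0, 0.0566 and 0.0525 CPM against 0.0849, 0.124 and 0 CPM. Dmrt2, a doublesex-related factor gene, was at 1.24, 1.16 and 0.945 CPM in HoxA2OE, against 0.0849, 0.0825 and 0 CPM in wild-type Md and 2.4, 1.22 and 1.72 CPM in wild-type PA2 of E10.5 (adjusted p = 1.31e-05). Onecut2, a homeobox gene, was at 5.91, 5.23 and 3.6 CPM, against 2.67, 1.94 and 2.23 CPM (1.09 ± 0.22, adjusted p = 6e-05), and the antisense gene Hoxb3os was at 1.16, 0.707 and 0.368 CPM, against 0.0849, 0 and 0 CPM (adjusted p = 4.71e-07), uncertain without strand.

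Of the 8 genes with the largest deficit in PA2 at E11.5, Pax3, Alx4, Tnn and Gpr50 fell in HoxA2OE Md, Hand1 rose, and Hey2, Tfap2c and Alx1 had no call. The tenascin gene Tnn was at 0, 0.0566 and 0.0263 CPM, against 0.382, 0.495 and 0.159 CPM (-3.38 ± 0.84, adjusted p = 0.00085). The receptor gene Gpr50 was at 92.1, 69.5 and 64.2 CPM, against 135, 99 and 106 CPM (-0.59 ± 0.19, adjusted p = 0.00784), still far above the 12.7, 8.27 and 7.17 CPM of wild-type PA2. Its call ended without HoxA2OE replicate 2 or 3 or wild-type Md replicate 1 (adjusted p = 0.0771, 0.112 and 0.0739). Hey2 was at 1.86, 1.02 and 0.919 CPM, against 1.74, 1.07 and 1.22 CPM, and Tfap2c at 11.1, 8.54 and 8.88 CPM, against 9.59, 10.4 and 10.1 CPM.

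The labelled genotype Hoxa2TempMut, whose allele and timing the labels do not name, gives the other comparison that shares no library. Hoxa2TempMut PA2 against Control PA2 at E11.5 called 128 genes, 0.623% of those tested. Of the 52 genes higher in Hoxa2TempMut with a difference in Md, 61.5% were lower in HoxA2OE Md, 24 called lower and 12 higher, against 53.9% of genes not called. Of the 74 genes lower in Hoxa2TempMut, 74.3% were higher in HoxA2OE Md, 41 called higher and 7 lower, against 46.1% of genes not called. With the GC offset, which called other sets, 66.7% of 66 genes and 67% of 100 genes had the opposite sign in HoxA2OE Md. Hoxa2 itself averaged 185 CPM in Hoxa2TempMut and 268 CPM in Control, with no call (-0.54 on the log2 scale, adjusted p = 0.503), so the counts over the gene do not check that label.

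Pitx1 averaged 10.8 CPM in Hoxa2TempMut, against 3.75 CPM in Control (log2 fold change 1.52, adjusted p = 0.00703), and Six2 averaged 24.7 CPM, against 13.5 CPM (0.87, adjusted p = 0.0351). Alx4 (1.2, adjusted p = 1.35e-07), Pax3 (1.49, adjusted p = 0.00137) and Lhx6 (0.84, adjusted p = 0.027) were also higher in Hoxa2TempMut. All 5 were lower in HoxA2OE Md. In the other direction, Fzd4 averaged 51.1 CPM in Hoxa2TempMut, against 86.5 CPM in Control (-0.76, adjusted p = 4.17e-05), and Meis2 684 CPM, against 1039 CPM (-0.60, adjusted p = 0.000196). Both were higher in HoxA2OE Md. Zfp503 (-0.46, adjusted p = 0.0834), Meis1 (-0.24, adjusted p = 0.856), Msx1, Lhx8 and Barx1 were not called in Hoxa2TempMut. Among other genes named above, Fst (1.51), Gpr50 (1.55) and Nkx3-2 (2.29) were higher in Hoxa2TempMut, with adjusted p of 9.88e-06, 4.17e-05 and 0.00259. Dmrt2 (-2.04), Onecut2 (-1.53), Hpgd (-0.96), Irx2 (-0.65), Pax9 (-0.62) and Moxd1 (-0.57) were lower, with adjusted p of 7.84e-05, 1.28e-07, 0.0202, 0.0126, 0.00069 and 0.0162.

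**Figure D5:**
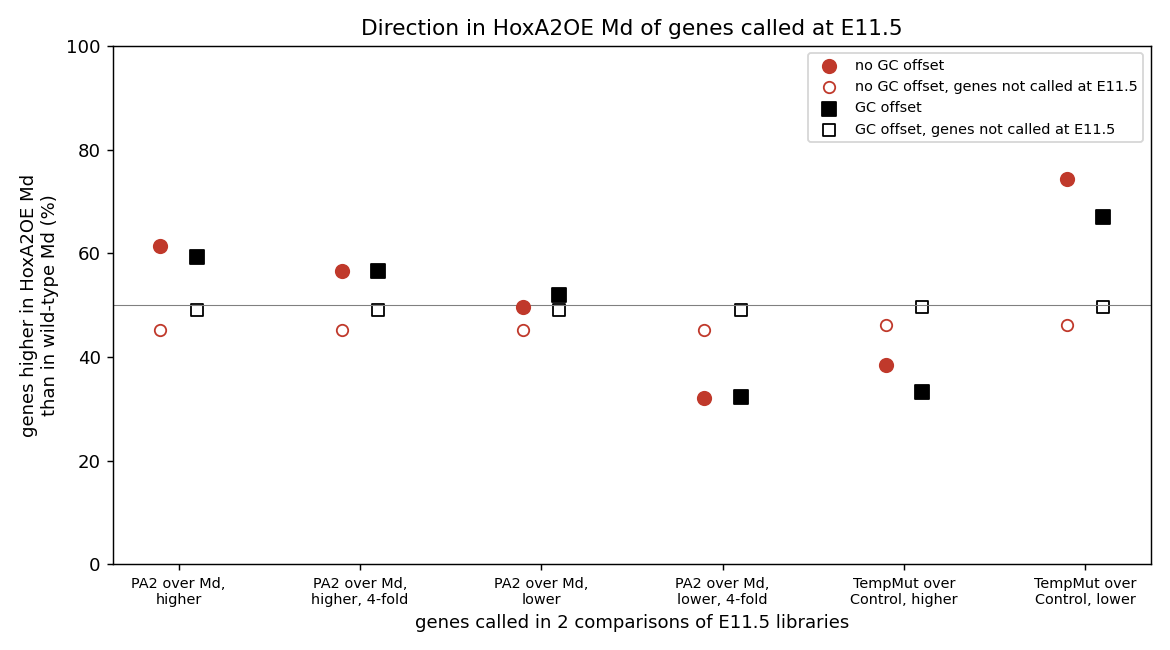
Share of genes with a higher level in HoxA2OE Md than in wild-type Md (y axis, %) for genes called in comparisons of E11.5 libraries (x axis), without (red) and with (black) the GC offset. Open symbols give the share among genes not called in that comparison. Genes lower in Hoxa2TempMut PA2 stand at 74.3%, and genes at least 4-fold lower in PA2 at 32%.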

How the data were processed

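Total RNA of sorted cells was sequenced as unstranded libraries of 50-base reads, per the labels' protocols. The authors deposited 1 table of raw read counts per gene, whose whole-number values run over 38215 genes and 47 libraries. Its aligner and counter are not stated in the labels, and the submitters' processing notes name mm10, GRCm38 and bcl2fastq 2.17. No normalization had been applied, and 22 column names occur again with identical values, of which the first copy was used. Total counts per library ran from 18.8 to 49.8 M.

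Genes passing filterByExpr (20560) were fitted over all 47 libraries with edgeR 4.0.16 (R 4.3.3): TMM scaling, quasi-likelihood F test, Benjamini-Hochberg adjusted p under 0.05, standard error from log2 fold change and F. The procedure was also run on simulated counts. These held no deviating replicate and no mitochondrial shift, so they do not test it under those features. GC content came from GENCODE M21 transcripts for 97.9% of genes, and the GC offset used a spline with 6 degrees of freedom over genes of at least 1 CPM. Deviations from the group mean correlated at -0.144, 0.186 and -0.248 between same-numbered libraries, and at -0.269 to 0.293 between the others. With 3 libraries per group and HoxA2OE replicate 1 apart, they cannot decide whether numbers pair libraries. Alternatives were DESeq2 1.42.0, RLE scaling, no filter, no mitochondrial genes, the 6 libraries alone, a replicate block, each library left out and, added after seeing the data, the GC offset with and without HoxA2OE replicate 1.

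The gene lists and members were chosen with earlier results of these data known. Genes are named by rule: Hoxa2, Pitx1 and Six2, the 12 largest changes each way among called genes of at least 5 CPM mean in the higher group, with a gene symbol other than a clone name and no overlap between the groups, every member of the candidate, cofactor and Hox 1 to 4 lists, up to 4 called members of each other list, and the 8 largest differences each way at E11.5. Some genes that this rule names are not reported here.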

Additional observations from a re-analysis of the deposited data

How the results depend on the processing

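Hoxa2 stayed called in the same direction under all 14 alternatives, between 8.58 and 8.74 on the log2 scale. The number of calls was 6400 (3468 higher, 2932 lower) when the 6 libraries were fitted alone and 4214 (2325 higher, 1889 lower) with the replicate number as a block in that fit. Whether the numbers pair the libraries is not known, so the block was kept as an alternative only. With the GC offset and HoxA2OE replicate 1 left out, 3802 genes were lower, and 51.7% of genes called between PA2 and Md at E11.5 had the same sign, against 56.0% in the main setting. Leaving out 1 library at a time gave 9445 to 11487 calls (4696 to 6252 higher, 4749 to 5356 lower), a median log2 fold change of -0.07 to -0.01, same-sign shares of 56.4 to 57.5% and opposite-sign shares for Hoxa2TempMut of 62.9 to 69.8%. The GC offset turned the sign of Pbx2 (0.40), Robo2 (-0.31) and Zfp703 (0.77), and of Alx1 (-0.30), Pknox2 (0.18) and Tfap2c (0.15), which neither fit called. With replicate 1 also left out, Pbx2 (0.43), Zfp703 (0.93), Alx1 (-0.52) and, without a call, Prrx1 (-0.0094), Robo2 (-0.20) and Pknox2 (0.06) differed in sign from the main setting. The cause was not tested. Of the 119 named genes tested when the 6 libraries were fitted alone, 13 lost their call, and 20 did with the replicate block. Of 136 named genes, 14 lost their call at the same sign with the GC offset and HoxA2OE replicate 1 left out. Prrx1 lost its call there with a turned sign. Calls were lost by 10 genes with the GC offset, 10 without HoxA2OE replicate 1 and 8 without wild-type Md replicate 1. At most 2 were lost without any other single library, against 1 under DESeq2, 1 with no filter and 0 under RLE scaling. Depth limits the genes under 1 CPM, whose values rest on few counts, and counting error alone was not separated from the spread between libraries.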

Other observations

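Of the genes called in Hoxa2TempMut PA2 against Control PA2 with a gene symbol and at least 5 CPM in HoxA2OE or wild-type Md, 70 in all, 41 were called in HoxA2OE Md in the opposite direction and 11 in the same direction, each with and without the GC offset. Of the 38 higher in Hoxa2TempMut, 50% were called lower in HoxA2OE Md in this way, against 14.7% of all 9474 genes with a symbol and that level. Of the 32 lower in Hoxa2TempMut, 68.8% were called higher, against 31.8%. Genes are not independent, so no p-value is given. The examples here were chosen after their values were seen. Lypd1, a modulator of nicotinic receptors, was at 24.8, 33.7 and 33.6 CPM in HoxA2OE Md, against 7.98, 6.27 and 7.54 CPM in wild-type Md (2.08 ± 0.20, edgeR adjusted p = 3.6e-11), and averaged 24 CPM in Hoxa2TempMut, against 65.4 CPM in Control. Gbx2, a homeobox gene, was at 3.68, 1.73 and 2.65 CPM, against 18.5, 13.9 and 15.2 CPM (-2.58 ± 0.23, adjusted p = 1.03e-11), and averaged 18.6 CPM in Hoxa2TempMut, against 7.26 CPM in Control. Nr5a2, a nuclear receptor gene, was at 4.63, 5.23 and 3.99 CPM, against 16.1, 18.1 and 14.9 CPM (-1.82 ± 0.20, adjusted p = 5.7e-10), and averaged 47.2 CPM in Hoxa2TempMut, against 20.7 CPM in Control. No HoxA2OE library of these 3 genes overlapped a wild-type one.

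A single gene had all HoxA2OE libraries at least 4-fold above the highest of the other 44, and none had all of them 4-fold below the lowest. AC132131.1 (chromosome 10, 89873672 to 90683697) was at 14.1, 26.7 and 19.5 CPM in HoxA2OE, against 0.127, 0.124 and 0.159 CPM in wild-type Md. In GENCODE M21 the gene Anks1b spans this interval, and Anks1b was also among the largest rises. Its neighbours differed less, with Actr6 at 39.3, 24.5 and 22.7 CPM against 11.46, 10.9 and 15.4 CPM, Scyl2 at 90.5, 93.7 and 90.6 CPM against 78, 73.3 and 79.7 CPM and Apaf1 at 78.5, 73.6 and 69.5 CPM against 65.3, 64.4 and 76.2 CPM.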
